A study of Mus musculus with 16 samples.

Results

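The question here was which protein signals set liver tumors apart from control liver whichever of 2 oncogenes the tumor carried. All 16 of the 16 liver samples in the series were used, 10 tumors and 6 control livers, and all 158 antibodies of the array, after removal of the blank and dye reference spots. The average tumor effect was taken over both arms with the arm as a covariate, and the direction of the tumor difference was then read in each arm on its own. The 7 Ctnnb1-mutated tumors and their 3 control livers came from male C3H/HeJ mice labelled as given phenobarbital (PB), and the 3 Ha-ras-mutated tumors and their 3 control livers from male C3H/HeJ mice labelled as given water with no PB. The characteristics give a treatment time of 27 weeks for every sample. The series' design text gives an injection of diethylnitrosamine (DEN, a liver carcinogen) at 10 or 90 µg per g body weight, at an age of 2 or 6 weeks. After 2 weeks without treatment it gives a diet with 0.05% PB or without PB for 28 to 36 weeks, whereas the sample protocols give 28 days of PB in drinking water. The DEN dose and age of each sample, and whether the control livers came from injected mice, were not given. Genotype and PB cannot be told apart, because each genotype comes from 1 arm. Each arm has its own controls, so a tumor difference was measured at 1 treatment in each arm.

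Ctnnb1 encodes beta-catenin, which carries the Wnt signal into the nucleus and sets the gene program of hepatocytes around the central vein. Ha-ras (HRAS) encodes a small GTPase that passes growth factor signals through RAF and MEK kinases to the ERK kinases. Phenobarbital is an inducer of drug-metabolizing enzymes and a promoter of liver tumors in mice, and tumors that grow under it typically carry activated Ctnnb1, whereas those that grow after DEN alone often carry activated Ha-ras. Liver tumors of either kind can share changes in growth factor signalling, translation and the metabolic enzymes of the hepatocyte.

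The samples were measured on a reverse-phase protein array, on which lysates are spotted and each antibody gives 1 fluorescence intensity per sample. Values are given as median-scaled signal, the intensity over the median intensity of that sample's antibodies, so 1 is the sample's own median. Differences are tumor minus control on the log2 scale of that signal with their standard error. The median intensity per sample was 0.532 to 0.791 in the Ctnnb1 tumors, 0.520 to 0.633 in the PB controls, 0.469 to 0.545 in the Ha-ras tumors and 0.466 to 0.557 in the controls without PB. The median SD of an antibody was 0.21 log2 in both tumor groups, against 0.11 in the PB controls and 0.14 in the controls without PB. Of 4 hepatocyte markers, HNF4A, CYP2E1 and CYP1A2 were on the array and ALB was not, and none of 15 markers of other liver cell types was. Fewer cells of a type and less of a protein per cell cannot be told apart in these tissue lysates. The files name antibodies by human symbols, and the mouse paralogs that each one binds were not given. An antibody is called dim in a sample where its intensity was under 2 times its matched blank. Of the 158 antibodies 146 had a matched blank, and 92 of these were dim in no sample. Antibodies without a matched blank, among them ILK, MAP2K1 and ACTB, have no dim call.

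No antibody passed the threshold for the shared tumor effect. In the limma fit 0 of 158 (0%) reached an adjusted p under 0.05, with 0.0570 as the lowest value. At an adjusted p under 0.10 there were 20 antibodies (12.7%). At an unadjusted p under 0.05 there were 35 (22.2%), of which 13 (8.23%) were higher and 22 (13.9%) were lower in tumors. By sign alone 52 antibodies were higher (32.9%) and 106 lower (67.1%), and the median over all antibodies was -0.08. With each sample scaled to the dye reference spots the split at an unadjusted p under 0.05 was 26 higher and 4 lower with a median of 0.11, and in the authors' value table it was 35 and 4 with a median of 0.15. The balance of higher and lower antibodies therefore depended on the scaling. Of the 35 antibodies at an unadjusted p under 0.05, 31 had the same direction under all 5 scalings, and CYP2D6, CYP4F2, ILK and PTPN11 were the 4 that turned under 1 of them. The sizes moved more than the signs. Over the 5 scalings the difference ranged from 0.43 to 0.68 for EIF2A, -0.43 to -0.23 for EGFR, -0.32 to -0.12 for PIK3R1, -0.27 to -0.07 for HDAC2, -0.25 to -0.06 for HDAC3 and -0.27 to -0.08 for JAK1. At their weakest HRAS was -0.0159, MAP2K2 -0.0140, PON1 -0.00861, PPARA_3 -0.00812 and CYP3A5 -0.00342, so the lower values given below for these antibodies hold for the median scaling. The count of 0 also rests on a fit without a term for the replicate number. With the replicate number as a random block over all 16 samples 15 antibodies passed. With it as a fixed block 0 did, but that fit used only the 12 samples in same-numbered pairs. The 20 antibodies described below by smallest p have differences with an adjusted p between 0.0570 and 0.0988, and none of these differences passed the test over both arms.

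**Figure D1:**
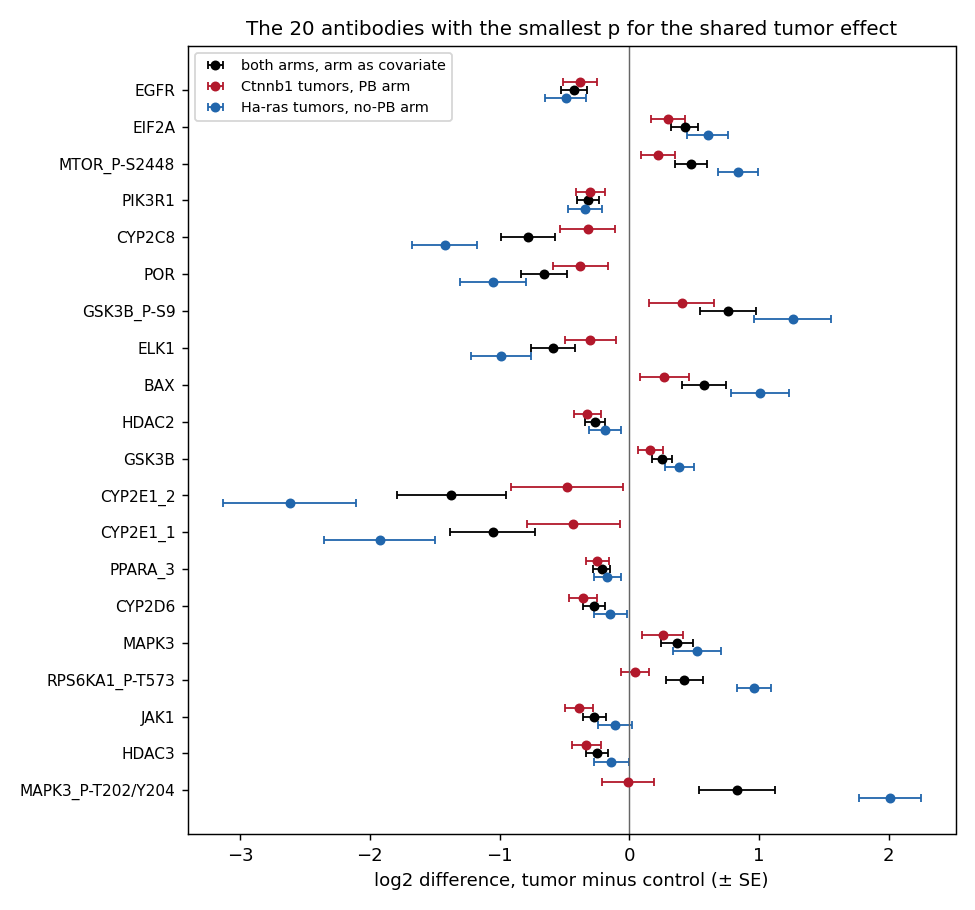
Log2 difference of tumor minus control with its standard error (horizontal axis) for the 20 antibodies with the smallest p for the shared tumor effect, over both arms with arm as covariate (black), in the PB arm (red) and in the no-PB arm (blue). PIK3R1 has nearly the same difference in both arms, whereas MAPK3_P-T202/Y204 and RPS6KA1_P-T573 have PB arm values near 0 (-0.01 and 0.04) beside no-PB arm values of 2.01 and 0.96. EGFR was dim in 10 of 16 samples, so its similar values in the arms are not read as changes of equal size.

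The arms were then read separately, to find which antibodies moved the same way in each. In the PB arm 0 of 158 antibodies (0%) passed an adjusted p of 0.05, with 25 (15.8%) at an unadjusted p under 0.05, of which 24 were lower and 1 was higher in Ctnnb1 tumors. In the no-PB arm 22 passed (13.9%), 16 of which rose (10.1%) and 6 fell (3.8%) in Ha-ras tumors. A test that requires a difference in the same direction in both arms, which takes the larger of the 2 arm p-values, called 0 antibodies (0%). EGFR, EIF2A and PIK3R1 were the 3 antibodies (1.9%) with an unadjusted p under 0.05 in the same direction in both arms. Of these, EGFR was dim in 10 of 16 samples. By sign, 27 antibodies (17.1%) were higher in both arms, 69 (43.7%) were lower in both, 52 (32.9%) were lower in Ctnnb1 and higher in Ha-ras tumors, and 10 (6.33%) were the opposite. These counts depended on the scaling. With the dye reference scaling 90 antibodies were higher and 17 lower in both arms. The counts were 42 and 51 without centring, 45 and 50 after quantile normalization, and 83 and 19 in the authors' value table. The median PB arm difference was -0.14 with the median scaling, 0.07 with the dye reference scaling and 0.13 in the authors' value table. Counts by sign in both arms given below for the lists are from the median scaling. The difference between the arms itself passed an adjusted p of 0.05 for 8 antibodies (5.06%). Tumors and controls did not overlap for 1 antibody higher (0.633%) and 13 lower (8.23%) in Ctnnb1 tumors, and for 27 higher (17.1%) and 15 lower (9.49%) in Ha-ras tumors. Across the 158 antibodies, which share samples and are not independent, the differences in the arms had a Pearson correlation of -0.00206 and a Spearman correlation of 0.331. GLUL and CYP2B6_3 lie far from the other antibodies in that comparison.

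**Figure D2:**
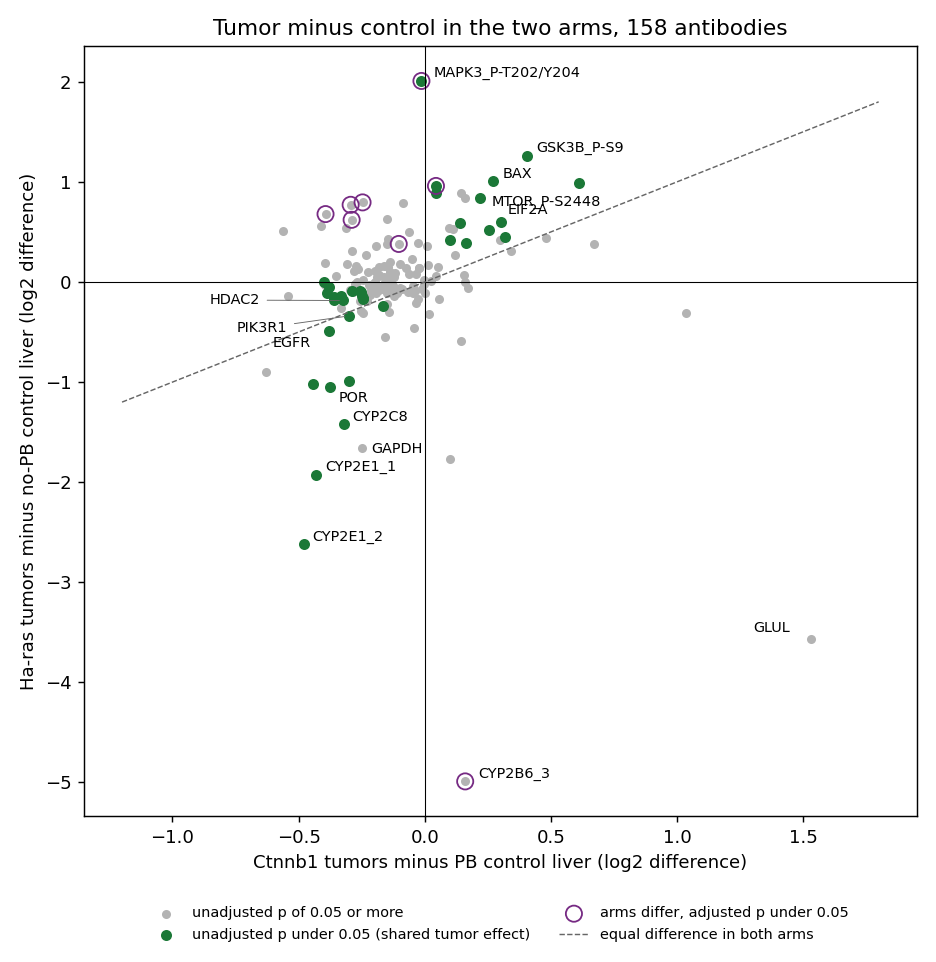
Each point is 1 of 158 antibodies, with the log2 difference of Ctnnb1 tumors minus PB control liver on the horizontal axis and of Ha-ras tumors minus no-PB control liver on the vertical axis. Green points have an unadjusted p under 0.05 for the shared effect, purple rings mark the 8 antibodies whose difference between arms passed an adjusted p of 0.05, and the dashed line is an equal difference in both arms. The no-PB arm spans a wider range than the PB arm, and EGFR, PIK3R1 and HDAC2 lie close to the dashed line. EGFR was dim in 10 of 16 samples.

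Among proteins of translation and its control, EIF2A was separated from control liver in both arms. The array lists EIF2A beside its serine 51 site, which is the site known on the alpha subunit of the initiation factor that brings the initiator transfer RNA to the ribosome, and which of the proteins known under this name the antibody binds was not given. EIF2A had a median-scaled signal of 1.32 to 1.95 in the 7 Ctnnb1 tumors with a median of 1.60, against 1.32, 1.30 and 1.27 in the PB controls. In the other arm it was 2.63, 2.24 and 1.99 in the Ha-ras tumors against 1.61, 1.36 and 1.53 in the controls without PB. All 7 Ctnnb1 tumors and all 3 Ha-ras tumors lay above every control of their arm, though the lowest Ctnnb1 tumor and the highest PB control were the same to 3 digits. EIF2A was higher in tumors by 0.43 ± 0.10 log2, or 1.34-fold (adjusted p = 0.057). The difference was 0.30 ± 0.13 in the PB arm (unadjusted p = 0.0369) and 0.60 ± 0.16 in the no-PB arm, where it rose (adjusted p = 0.0144). The arms differed by -0.30 ± 0.20 (adjusted p = 0.506). EIF2A was the 1 antibody of 158 (0.633%) whose tumors lay above all controls in both arms. This separation was also seen with the dye reference scaling and in the authors' value table, but not without centring or after quantile normalization.

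The serine 51 form, EIF2A_P-S51, which slows the start of translation under stress, was dim in 15 of 16 samples. Its own signal differed by -0.04 ± 0.09 log2 between tumors and controls. The ratio of EIF2A_P-S51 to EIF2A is not read as a change of the site, since it sets a signal near its blank against the EIF2A values above.

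The receptor EGFR, which binds epidermal growth factor and is abundant on normal hepatocytes, had the smallest p of the array. EGFR was 0.194 to 0.312 in Ctnnb1 tumors with a median of 0.240, and 0.312, 0.270 and 0.384 in PB controls. It was 0.260, 0.245 and 0.297 in Ha-ras tumors and 0.373, 0.404 and 0.346 in controls without PB. In the PB arm 6 of 7 tumors lay below all controls, and in the no-PB arm all 3 did. The shared difference was -0.43 ± 0.10 (adjusted p = 0.057), with -0.38 ± 0.13 in the PB arm (unadjusted p = 0.0124) and -0.49 ± 0.16 in the no-PB arm (adjusted p = 0.0529). EGFR was a weak signal, dim in 4 of 7 Ctnnb1 tumors and in all 3 PB controls. No fold is therefore given for the PB arm, and the difference there is not read as a size. It was dim in all 3 Ha-ras tumors and in no control without PB, so those controls were at least 1.18-fold brighter.

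Of the 3 phosphorylated forms of EGFR on the array, EGFR_P-Y1045 was dim in 16 of 16 samples and EGFR_P-Y1068 in 14, so differences of these 2 are not read as changes of the sites. EGFR_P-Y845 was dim in 3. The shared log2 difference was -0.08 ± 0.15 for EGFR_P-Y1068, -0.12 ± 0.12 for EGFR_P-Y1045 and -0.13 ± 0.09 for EGFR_P-Y845, and all 7 Ctnnb1 tumors lay below the PB controls for EGFR_P-Y845. The Y1068 site is a docking site for the adaptor GRB2, and Y1045 recruits the ubiquitin ligase CBL. No ratio to EGFR is read for these sites, since EGFR itself was dim in 10 of 16 samples. Of the 13 antibodies to receptor and other tyrosine kinases, 10 were lower in both arms by sign and none was higher in both. Of all antibodies 43.7% were lower in both and 17.1% higher in both. EGFR, MET and PTPN11 were the 3 lower at an unadjusted p under 0.05, as were 13.9% of all antibodies. The median of the 13 was -0.11, against -0.08 over all antibodies, and it was 0.09 with the dye reference scaling and in the authors' value table. With the dye reference scaling 11 of the 13 had a shared difference above 0.

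MET, the receptor of hepatocyte growth factor, was 0.776 to 1.15 in Ctnnb1 tumors (median 0.879) and 0.984, 1.76 and 1.15 in PB controls. It was 0.853, 0.576 and 0.753 in Ha-ras tumors and 1.07, 3.50 and 0.815 in controls without PB. One control without PB was far brighter than the others, and the Ha-ras tumors overlapped the lowest control. The difference of MET was -0.68 ± 0.26 (adjusted p = 0.135). PTPN11, a phosphatase that acts downstream of receptor tyrosine kinases, differed by -0.19 ± 0.08 (adjusted p = 0.201), and its direction turned under 1 of the 5 scalings.

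PIK3R1, the regulatory subunit of PI3-kinase, which holds the catalytic subunit and docks on activated receptors, had nearly the same difference in both arms. PIK3R1 was 1.47 to 2.04 in Ctnnb1 tumors with a median of 1.70, and 2.03, 1.95 and 2.34 in PB controls. It was 1.73, 1.63 and 1.47 in Ha-ras tumors and 2.10, 2.05 and 1.96 in controls without PB. In the PB arm 6 of 7 tumors and in the no-PB arm 3 of 3 lay below all controls. The shared difference was -0.32 ± 0.08, with controls 1.25-fold over tumors (adjusted p = 0.057). It was -0.30 ± 0.11 in the PB arm (unadjusted p = 0.0164) and -0.34 ± 0.13 in the no-PB arm (adjusted p = 0.122), and the arms differed by 0.04 ± 0.17.

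Downstream of PI3-kinase, several antibodies were higher in tumors, with the larger part of the difference in the Ha-ras tumors. MTOR_P-S2448, a site on the growth-controlling kinase mTOR that is phosphorylated downstream of PI3-kinase, was 0.814 to 1.25 in Ctnnb1 tumors (median 0.976) and 0.899, 0.884 and 0.812 in PB controls. It was 1.92, 1.83 and 1.52 in Ha-ras tumors and 0.894, 1.08 and 0.972 in controls without PB. In the PB arm 5 of 7 tumors lay above all controls, and in the no-PB arm all 3 did. MTOR_P-S2448 was higher by 0.48 ± 0.12 log2, or 1.39-fold (adjusted p = 0.057). It rose by 0.84 ± 0.15 in the no-PB arm (adjusted p = 0.0024), while the PB arm gave 0.22 ± 0.13 (unadjusted p = 0.112).

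GSK3B is a kinase that marks beta-catenin for degradation and restrains glycogen synthase, and phosphorylation of its serine 9 by AKT and other kinases inhibits it. GSK3B_P-S9 was 0.189 to 0.659 in Ctnnb1 tumors (median 0.353) and 0.283, 0.297 and 0.242 in PB controls. It was 0.619, 0.745 and 0.779 in Ha-ras tumors and 0.305, 0.296 and 0.288 in controls without PB. Of the Ctnnb1 tumors 6 of 7 lay above all their controls and 1 lay below them, and all 3 Ha-ras tumors lay far above theirs. GSK3B_P-S9 was dim in 2 Ctnnb1 tumors, 2 PB controls and 1 control without PB. The shared difference was 0.76 ± 0.21, or 1.70-fold (adjusted p = 0.0611), and the signal rose by 1.26 ± 0.30 in the no-PB arm (adjusted p = 0.00965), while the PB arm gave 0.40 ± 0.25 (unadjusted p = 0.128). Total GSK3B was higher by 0.26 ± 0.08, or 1.19-fold (adjusted p = 0.0611), with 6 of 7 Ctnnb1 tumors and 3 of 3 Ha-ras tumors above all their controls, and it rose in the no-PB arm (adjusted p = 0.0297).

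RPS6_P-S235/S236, the phosphorylated form of a small-subunit ribosomal protein and a readout of S6 kinases, was 4.47 to 24.1 in Ctnnb1 tumors (median 6.39) and 5.29, 4.42 and 5.68 in PB controls. It was 12.4, 7.45 and 7.02 in Ha-ras tumors and 4.05, 3.08 and 6.69 in controls without PB. All 3 Ha-ras tumors lay above their controls, and the Ctnnb1 tumors ranged from within the controls to far above them. The difference was 0.77 ± 0.32 (adjusted p = 0.181), and relative to total RPS6 it was 1.04 ± 0.36, or 2.05-fold (adjusted p = 0.0763).

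AKT1 itself, the kinase between PI3-kinase and mTOR, differed by 0.01 ± 0.09, and AKT1_P-S473 by -0.29 ± 0.12 (adjusted p = 0.168). Over the 19 antibodies of the PI3-kinase, AKT, mTOR and translation list, 5 were higher and 2 lower at an unadjusted p under 0.05. Of all antibodies 8.23% were higher and 13.9% lower at that level. By sign 6 of the list were higher in both arms, 6 lower in both and 7 mixed, against 17.1% higher and 43.7% lower of all antibodies. The median of the list was 0.01, against -0.08 over all antibodies.

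**Figure D3:**
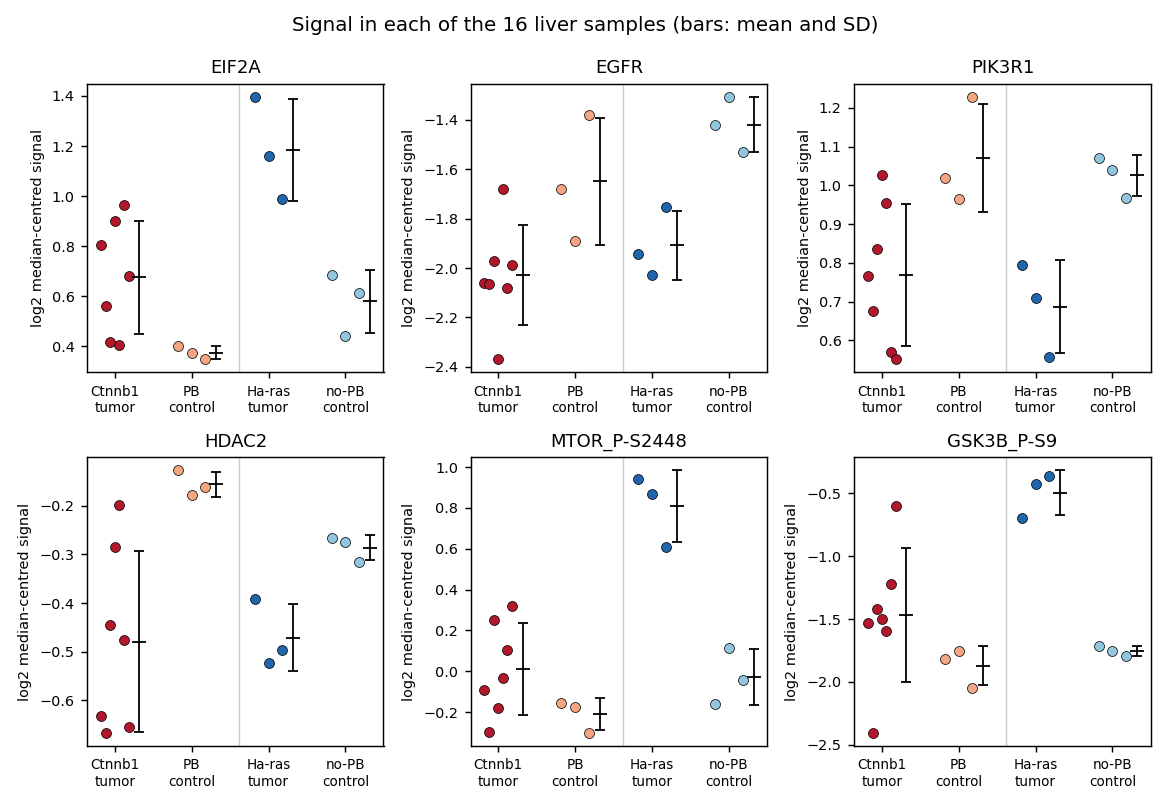
Log2 median-centred signal (vertical axis) of 6 antibodies in each of the 16 samples, with 1 point per sample, grouped as Ctnnb1 tumors, PB controls, Ha-ras tumors and no-PB controls, and with the group mean and SD beside the points. EIF2A tumors lie above and HDAC2 tumors below all controls of their arm, while MTOR_P-S2448 and GSK3B_P-S9 are separated from controls in the Ha-ras tumors, with 5 and 6 of the 7 Ctnnb1 tumors above their controls.

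The RAS, RAF, MEK and ERK cascade held few changes common to both genotypes. MAPK3 (ERK1) was 3.09 to 4.95 in Ctnnb1 tumors (median 4.04) and 3.68, 3.69 and 2.5 in PB controls. It was 4.22, 4.72 and 3.97 in Ha-ras tumors and 3.09, 2.83 and 3.05 in controls without PB. MAPK3 was above every control in the Ha-ras tumors and overlapped the controls in the Ctnnb1 tumors, with a shared difference of 0.37 ± 0.12, or 1.29-fold (adjusted p = 0.0744). Its activated form, MAPK3_P-T202/Y204, had a shared difference of 0.83 ± 0.29 (adjusted p = 0.0988) that was unequal between the arms. MAPK3_P-T202/Y204 was 13.0, 17.7 and 7.22 in Ha-ras tumors against 3.10, 2.76 and 2.97 in their controls. It was 1.96 to 3.03 in Ctnnb1 tumors (median 2.52) against 2.62, 2.34 and 2.66. The difference was 2.01 ± 0.24 in the no-PB arm and -0.01 ± 0.20 in the PB arm, and the arms differed (-2.02 ± 0.31, adjusted p = 0.00179).

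RPS6KA1_P-T573, the site through which ERK activates the kinase RSK1, was of the same kind. It was 2.18 to 3.20 in Ctnnb1 tumors (median 2.42) and 2.46, 2.39 and 2.32 in PB controls, and 4.90, 5.46 and 5.44 in Ha-ras tumors against 2.85, 2.40 and 2.89. The difference for RPS6KA1_P-T573 was 0.04 ± 0.11 in the PB arm and 0.96 ± 0.13 in the no-PB arm, and it differed between the arms (adjusted p = 0.00694). ELK1, a transcription factor that ERK phosphorylates, was lower instead, at 1.27 to 2.40 in Ctnnb1 tumors (median 1.88), 1.91, 2.40 and 2.70 in PB controls, 2.06, 1.41 and 1.59 in Ha-ras tumors and 3.93, 3.0 and 3.08 in controls without PB. The Ha-ras tumors lay below all their controls and the Ctnnb1 tumors overlapped theirs, with a shared difference for ELK1 of -0.59 ± 0.17 (adjusted p = 0.0611) and a fall in the no-PB arm (adjusted p = 0.00965).

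HRAS, whose gene is the mutated oncogene of 1 arm, differed by -0.21 ± 0.08 (adjusted p = 0.138), with -0.24 ± 0.11 in the PB arm and -0.16 ± 0.13 in the no-PB arm. MAP2K1 (MEK1) differed by -0.27 ± 0.14 (adjusted p = 0.288), and its activated form MAP2K1_P-S217/S221 by 0.15 ± 0.17. Over the 15 antibodies of the cascade 4 were higher and 3 lower at an unadjusted p under 0.05, against 8.23% and 13.9% of all antibodies. By sign 3 were higher in both arms, 6 lower in both and 6 mixed, against 17.1% higher and 43.7% lower of all antibodies. The medians of the cascade were -0.25 in the PB arm and 0.31 in the no-PB arm.

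Beta-catenin itself did not separate tumors from controls. CTNNB1 was 1.65 to 7.94 in Ctnnb1 tumors (median 3.44) and 3.78, 3.76 and 5.05 in PB controls, and 7.92, 6.68 and 7.98 in Ha-ras tumors against 4.17, 4.15 and 4.77 in their controls. The Ctnnb1 tumors spread over both sides of their controls, and the Ha-ras tumors lay above theirs, with a shared difference of 0.28 ± 0.29 (adjusted p = 0.576). CTNNB1_P-S675, a site of protein kinase A, differed by 0.07 ± 0.15, and CTNNB1_P-T41/S45, the sites that start its degradation, by 0.15 ± 0.12. GLUL, the glutamine synthetase of central vein hepatocytes and a target of beta-catenin, had a shared difference of -0.65 ± 1.14 without Ctnnb1 tumor 6, whose value was not positive and was left out. GLUL had opposite signs in the arms, 1.53 ± 1.26 and -3.57 ± 1.45, neither of which passed the test. It was dim in 2 of the 3 Ha-ras tumors, which ranged from 0.0596 to 6.55, so the size of the no-PB arm difference is not read. Of the 14 antibodies on the Wnt list, GSK3B and GSK3B_P-S9 were higher and both CYP2E1 antibodies lower at an unadjusted p under 0.05. Of all antibodies 8.23% were higher and 13.9% lower at that level.

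Among enzymes that act on histones, HDAC2 was the antibody whose tumors lay below all controls in both arms. HDAC2 and HDAC3 are deacetylases that sit in nuclear corepressor complexes. HDAC2 was 0.630 to 0.871 in Ctnnb1 tumors (median 0.719) and 0.915, 0.884 and 0.894 in PB controls, and 0.762, 0.695 and 0.709 in Ha-ras tumors against 0.831, 0.826 and 0.804 in their controls. All 10 tumors were below every control of their arm, which held for 1 antibody of 158 (0.633%), though not under the other 4 scalings. HDAC2 was dim in 1 Ha-ras tumor. The shared difference of HDAC2 was -0.27 ± 0.08, with controls 1.20-fold over tumors (adjusted p = 0.0611). It was -0.32 ± 0.10 in the PB arm (unadjusted p = 0.00688) and -0.18 ± 0.12 in the no-PB arm (unadjusted p = 0.151).

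HDAC3 was 0.445 to 0.667 in Ctnnb1 tumors (median 0.556) and 0.706, 0.679 and 0.672 in PB controls, and 0.515, 0.570 and 0.541 in Ha-ras tumors against 0.622, 0.631 and 0.540. All 7 Ctnnb1 tumors lay below their controls, while the Ha-ras tumors overlapped the lowest control, and HDAC3 differed by -0.25 ± 0.09 (adjusted p = 0.0934). It was dim in 1 Ha-ras tumor and 1 PB control. HDAC6, a mainly cytoplasmic deacetylase, differed by -0.08 ± 0.17. Of the 10 antibodies to histones and their enzymes, HDAC2 and HDAC3 were the 2 at an unadjusted p under 0.05. Both were lower, as were 13.9% of all antibodies at that level, and the median of the list was -0.14. That median was 0.06 with the dye reference scaling.

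The enzymes of drug metabolism were mostly lower by sign in both arms with the median scaling. Of the 15 antibodies on this list, 11 were lower in both arms, 1 was higher in both and 3 were mixed. Of all antibodies 43.7% were lower in both and 17.1% higher in both. CYP2C8, CYP2D6, CYP2E1_1, CYP2E1_2 and POR were the 5 at an unadjusted p under 0.05. All 5 were lower, as were 13.9% of all antibodies at that level. The list's median was -0.38, against -0.08 over all antibodies, with -0.25 in the PB arm and -0.31 in the no-PB arm. Over both arms together the list's median lay between -0.38 and -0.18 under all 5 scalings. In the no-PB arm it lay between -0.58 and -0.14. In the PB arm it lay between -0.25 with the median scaling and -0.04 with the dye reference scaling, so it was close to 0 under the latter. In the no-PB arm 5 of the 15 fell at an adjusted p under 0.05, against 3.8% of all antibodies, and in the PB arm none passed. These 5 include both CYP2E1 antibodies, so they are not 5 separate proteins.

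POR, the reductase that hands electrons to all microsomal cytochrome P450 enzymes, was 24.4 to 48.7 in Ctnnb1 tumors (median 42.0) and 38.8, 52.8 and 51.1 in PB controls. It was 10.7, 10.0 and 8.12 in Ha-ras tumors and 20.4, 21.1 and 18 in controls without PB. The Ha-ras tumors were all far below their controls and the Ctnnb1 tumors overlapped theirs. POR differed by -0.66 ± 0.18, with controls 1.58-fold over tumors (adjusted p = 0.057), and it fell by 1.05 log2 in the no-PB arm (adjusted p = 0.0097), while the PB arm gave -0.38 ± 0.21 (unadjusted p = 0.0975).

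CYP2C8, a P450 of the drug-metabolizing 2C family, was 7.45 to 15.4 in Ctnnb1 tumors (median 11.9) and 11.7, 15.6 and 16.3 in PB controls. It was 1.04, 0.829 and 1.01 in Ha-ras tumors and 2.86, 2.91 and 2.01 in controls without PB. The Ha-ras tumors again lay below all their controls and the Ctnnb1 tumors overlapped theirs, and every sample of the PB arm was above every sample of the no-PB arm. CYP2C8 differed by -0.78 ± 0.21, with controls 1.72-fold over tumors (adjusted p = 0.057), with -1.42 ± 0.25 in the no-PB arm (adjusted p = 0.0024) and -0.32 ± 0.21 in the PB arm (unadjusted p = 0.154).

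CYP2E1 oxidizes ethanol and other small molecules in central vein hepatocytes, and it was measured by 2 antibodies. CYP2E1_2 was 10.1 to 49.3 in Ctnnb1 tumors (median 32.5) and 39.0, 42.6 and 38.5 in PB controls, and 3.28, 4.70 and 3.76 in Ha-ras tumors against 16.8, 20.9 and 38.2. CYP2E1_1 was 0.703 to 2.82 in Ctnnb1 tumors (median 2.38) and 2.32, 2.77 and 2.24 in PB controls, and 0.380, 0.283 and 0.379 in Ha-ras tumors against 1.23, 1.33 and 1.37. Both antibodies separated the Ha-ras tumors from their controls, and on both the Ctnnb1 tumors overlapped theirs. Each was dim in 1 Ha-ras tumor. The shared differences were -1.37 ± 0.42 for CYP2E1_2 and -1.05 ± 0.33 for CYP2E1_1 (adjusted p = 0.0613 for both). Both fell in the no-PB arm (adjusted p = 0.00378 and 0.00823), and the PB arm gave -0.48 ± 0.43 and -0.43 ± 0.36.

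CYP2D6, a P450 that oxidizes many drugs, had the opposite balance between the arms. CYP2D6 was 16.1 to 21.8 in Ctnnb1 tumors (median 18.3) and 22.8, 23.5 and 24.6 in PB controls, and 17.9, 16.2 and 18.6 in Ha-ras tumors against 21, 20.5 and 16.9. All 7 Ctnnb1 tumors lay below their controls, and the Ha-ras tumors overlapped theirs. The shared difference was -0.27 ± 0.08 (adjusted p = 0.0613), with -0.36 ± 0.11 in the PB arm and -0.15 ± 0.13 in the no-PB arm, and after quantile normalization it was 0.05.

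Other liver proteins outside that list also had differences that did not pass the test. PON1, an esterase that hepatocytes secrete into the blood, differed by -0.20 ± 0.08 (adjusted p = 0.168). PPARA, the nuclear receptor that drives fatty acid oxidation, was measured by 3 antibodies, of which PPARA_3 differed by -0.21 ± 0.07 (adjusted p = 0.0613), PPARA_1 by -0.21 ± 0.10 (adjusted p = 0.215) and PPARA_2 by -0.02 ± 0.08. PPARA_3 was 0.285 to 0.351 in Ctnnb1 tumors (median 0.303) and 0.365, 0.390 and 0.341 in PB controls, and 0.299, 0.263 and 0.305 in Ha-ras tumors against 0.307, 0.345 and 0.322. The Ha-ras tumors were all dim for PPARA_3, so the controls without PB were at least 1.02-fold brighter, and the Ctnnb1 tumors overlapped their controls. HNF4A, a master transcription factor of hepatocytes, differed by -0.09 ± 0.09. GAPDH, the glycolytic enzyme, differed by -0.84 ± 0.59 (adjusted p = 0.414) and varied in the controls without PB, at 0.315, 2.20 and 4.12. GAPDH was dim in 4 Ctnnb1 tumors, 1 PB control and 2 Ha-ras tumors, so its difference rests in part on values near the blank. ACTB differed by 0.38 ± 0.61 without PB control 6, whose value was not positive and was left out, so neither of these common loading references was steady between samples.

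**Figure D4:**
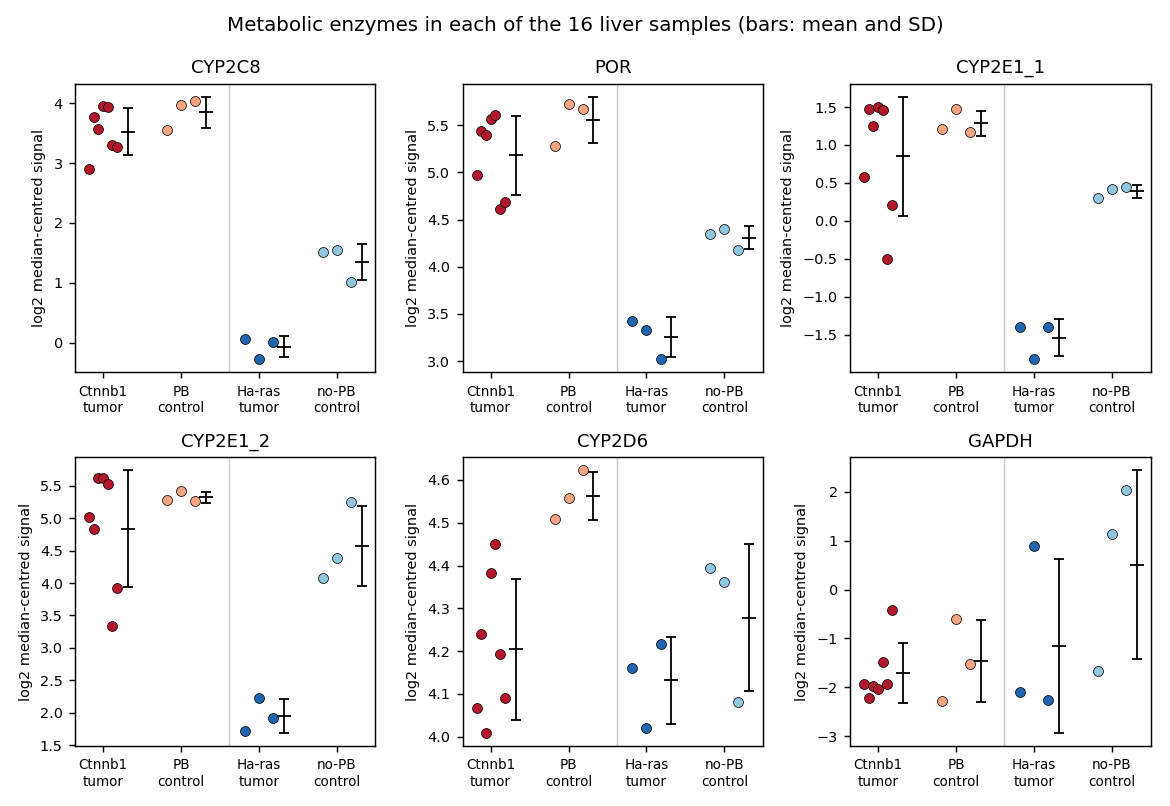
Log2 median-centred signal (vertical axis) of 5 antibodies to drug-metabolizing enzymes and of GAPDH in each of the 16 samples, with 1 point per sample and the group mean and SD beside the points. CYP2C8, POR and both CYP2E1 antibodies are lowest in the 3 Ha-ras tumors, CYP2D6 is lower in all 7 Ctnnb1 tumors than in the PB controls, and GAPDH varies widely in the no-PB arm.

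Of the remaining antibodies with the smallest p, BAX, which permeabilizes mitochondria in apoptosis, was higher and JAK1, a kinase of cytokine receptors, was lower. BAX was 1.31 to 2.42 in Ctnnb1 tumors (median 1.86) and 1.65, 1.71 and 1.17 in PB controls, and 2.83, 2.77 and 2.32 in Ha-ras tumors against 1.29, 1.10 and 1.57. The Ha-ras tumors lay above all their controls and the Ctnnb1 tumors overlapped theirs. BAX differed by 0.58 ± 0.17, or 1.49-fold (adjusted p = 0.0611), with 1.01 ± 0.23 in the no-PB arm (adjusted p = 0.00823) and 0.27 ± 0.19 in the PB arm. None of the other 5 antibodies of the apoptosis list had an unadjusted p under 0.05.

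JAK1 was 0.597 to 0.791 in Ctnnb1 tumors (median 0.715) and 0.882, 0.924 and 0.915 in PB controls, and 0.755, 0.818 and 1.08 in Ha-ras tumors against 0.936, 0.933 and 0.955. All 7 Ctnnb1 tumors lay below their controls and 1 Ha-ras tumor lay above its own. JAK1 differed by -0.27 ± 0.09 (adjusted p = 0.0744), with -0.39 ± 0.11 in the PB arm (unadjusted p = 0.00338) and -0.11 ± 0.13 in the no-PB arm. Its phosphorylated form, JAK1_P-Y1022/Y1023, differed by 0.08 ± 0.09.

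The other lists held few antibodies at an unadjusted p under 0.05. Among 7 antibodies to stress-activated MAP kinases the 1 was MAPK8_P-T183/Y185, the activated form of the kinase JNK1, which differed by 0.40 ± 0.17 (adjusted p = 0.189) and rose in the no-PB arm (adjusted p = 0.0097). Among 7 antibodies to adhesion and the cytoskeleton, CDH2 (N-cadherin, which joins hepatocytes to each other) differed by 0.37 ± 0.17 (adjusted p = 0.212), PAK1_P-S141 by 0.33 ± 0.12 (adjusted p = 0.106) and ILK, a kinase-like protein of integrin contacts, by -0.24 ± 0.10 (adjusted p = 0.192). Of 12 antibodies to JAK, STAT and NF-kB proteins only JAK1 was at that level, and of 7 to hepatocyte regulators only PPARA_3. None of 10 cell cycle antibodies was, by limma, and their median was -0.06, which lies close to the -0.08 of all antibodies.

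Phosphorylated forms were compared with the total protein of the same sample for 45 pairs. No pair passed an adjusted p of 0.05 for the shared effect (0%), and 11 had an unadjusted p under 0.05 (24.4%), of which 10 were higher (22.2%) and 1 was lower (2.22%). The smallest adjusted p was 0.0763, shared by the ratios of RPS6KA1_P-T573 (0.54 ± 0.18), JAK1_P-Y1022/Y1023 (0.35 ± 0.12), EIF2A_P-S51 (-0.47 ± 0.16, from a dim site), PAK1_P-S141 (0.41 ± 0.14), MTOR_P-S2448 (0.33 ± 0.11) and RPS6_P-S235/S236 (1.04 ± 0.36). The 11 also include the ratios of EGFR_P-Y1068 and EGFR_P-Y1045, which were dim in 14 and 16 samples. PAK1 is a kinase that acts on the cytoskeleton downstream of Rac and Cdc42. Within arms, the 1 ratio that passed in the PB arm (2.22%) was that of JAK1_P-Y1022/Y1023, which rose by 0.56 log2 in Ctnnb1 tumors (adjusted p = 0.0248) and was 0.05 in the no-PB arm. In the PB arm the site itself differed by 0.17 ± 0.11 (unadjusted p = 0.143 by limma) and total JAK1 by -0.39 ± 0.11. The larger part of this ratio therefore came from the lower total. In the no-PB arm 4 ratios passed (8.89%), and 2 differed between the arms (4.44%). Over the signals themselves, 8 of 50 antibodies to phosphorylation sites were higher and 1 was lower at an unadjusted p under 0.05, while of 108 antibodies without a site 5 were higher and 21 lower. The medians of these groups were -0.04 and -0.10.

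The 22 antibodies that passed in the no-PB arm were looked up in the PB arm, which shares no sample with it. Of the 16 that rose in Ha-ras tumors, 8 were higher in Ctnnb1 tumors, whereas 23.4% of all 158 antibodies were. Of the 6 that fell, 5 were lower in Ctnnb1 tumors, whereas 76.6% of all antibodies were. With the dye reference scaling the counts were 12 of 16, where 65.2% of all antibodies were higher, and 5 of 6, where 34.8% were lower. The median PB arm difference was 0.02 for the 16, -0.35 for the 6 and -0.14 for all antibodies.

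Measured against the mean of their own controls, all 10 tumors were above it for 1 antibody (0.633%), EIF2A. All 10 were below it for 9 antibodies (5.7%), namely CYP2D6, EGFR, HDAC2, HDAC3, HRAS, MET, PIK3R1, PON1 and PPARA_3. These antibodies were listed after their values were seen, and no test was made of the count. The count was made with the median scaling only, where 76.6% of all antibodies were lower in Ctnnb1 tumors. Under another scaling the shared difference of CYP2D6 turned to 0.05. At their weakest HRAS was -0.0159, PON1 -0.00861 and PPARA_3 -0.00812.

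The number of antibodies called also depended on how the arms were weighted. The additive fit counts a difference between the arms as part of the spread between samples. When each group had its own mean and the arms were weighted equally, 17 antibodies passed an adjusted p of 0.05 (10.8%), 9 of which rose and 8 fell. Of these 17, 15 had also passed in the no-PB arm alone, and MAPK3_P-T202/Y204 and CYP2B6_3 had opposite signs in the arms. EGFR and PIK3R1 were the 2 that passed in this average (adjusted p = 0.00993 and 0.0230) and in neither arm alone.

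**Figure D5:**
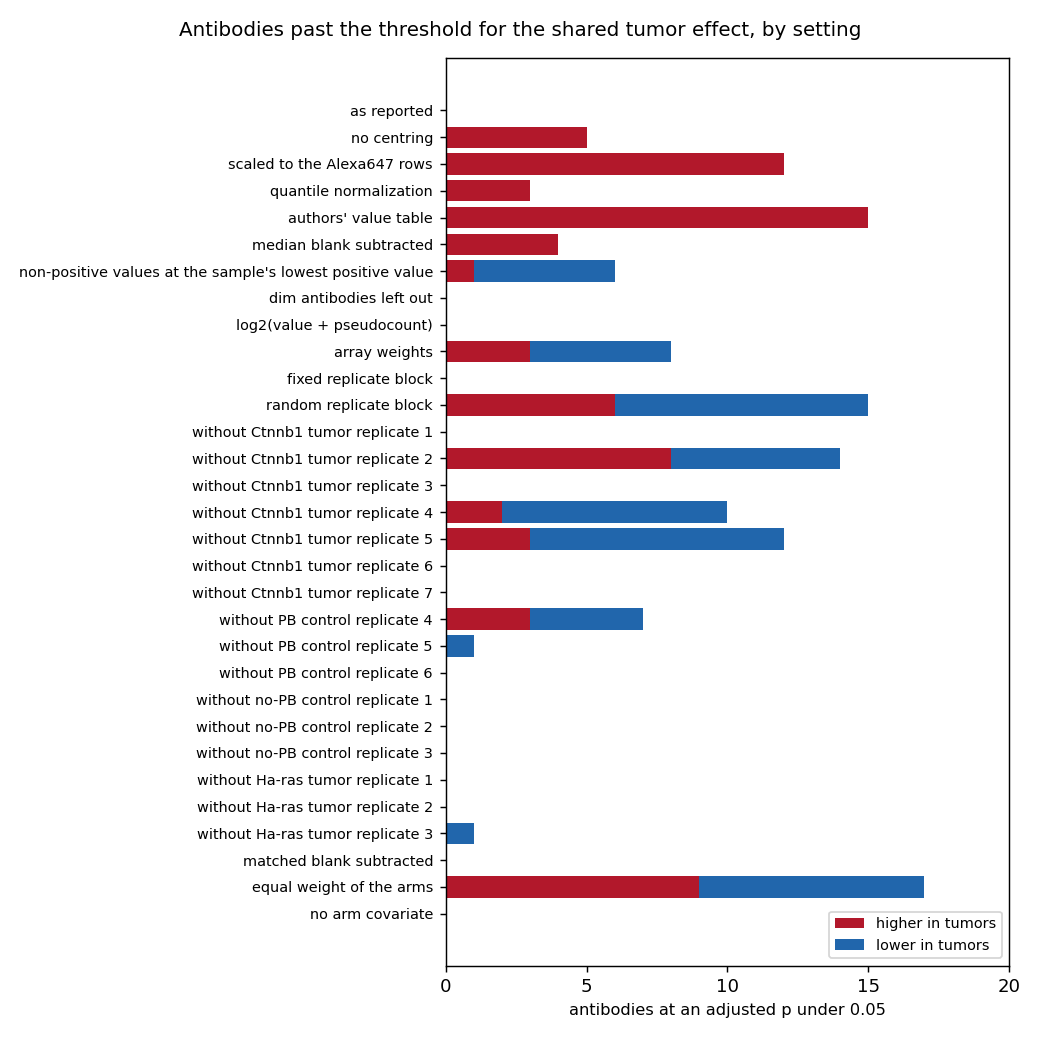
Number of antibodies at an adjusted p under 0.05 for the shared tumor effect (horizontal axis) under each setting (vertical axis), higher in tumors in red and lower in blue. The count is 0 as reported, 17 with equal weight of the arms, 15 in the authors' value table and 0 to 14 when 1 sample is left out.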

How the data were processed

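Groups and replicate numbers came from the sample titles, and nothing states that samples came from separate animals, so p-values measure the spread between samples. The deposited sample files hold relative fluorescence intensity for 183 spots per sample, per the file headers, of which 19 blanks and 6 dye reference spots were removed. Per the labels' protocols, ground frozen tissue was lysed in an 8-fold excess of buffer and detected with fluorescent secondary antibodies. No source used here states a scaling of these intensities by the authors. The authors' deposited value table holds log2 values, used as an alternative. After a log2 transform, each sample was centred on the median of its 155 antibodies that had positive values throughout, and 3 non-positive values were set to missing. No blank was subtracted, which understates differences of dim antibodies. For an antibody dim in a whole group, the bound sets the brighter group's mean against each dim sample's signal or its dim limit, whichever is higher.

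The shared effect is the tumor coefficient of a limma fit with arm and tumor (limma 3.58.1 in R 4.3.3, with 13 residual degrees of freedom and 2.52 from the prior). A fit of 4 group means (12 residual degrees of freedom and 2.65 from the prior) gave each arm, their difference and the test of both arms. Adjusted p-values are Benjamini-Hochberg over the 158 antibodies, or the 45 pairs, with a threshold of 0.05. Unadjusted p-values printed beside them are from the same limma fits. The script was tested on simulated data. Antibodies were named as the 20 with the smallest p, those whose groups do not overlap in both arms, the ratios with the smallest p, and CTNNB1, HRAS, GLUL, MAPK3, MAP2K1 and AKT1, and other members of the lists were added after their values were seen. The members and lists were chosen with earlier results of these data known, and the dim limit and matched blanks after the values were seen. The highest correlation between 2 samples was 0.993, and no sample was counted as a duplicate. Alternatives changed the scaling, blanks, missing values, dim antibodies, pseudocount, sample weights, replicate block, weighting of the arms, and left out each sample. No protein sequence was used here.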

Additional observations from a re-analysis of the deposited data

Results flagged for a closer look

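For 8 of 158 antibodies (5.06%) the tumor difference itself differed between the arms at an adjusted p under 0.05 in limma. Given as the PB arm minus the no-PB arm on the log2 scale, the difference was -2.02 for MAPK3_P-T202/Y204 (adjusted p = 0.00179), -1.06 for MAP2K1_P-S217/S221 (adjusted p = 0.0105), -0.92 for RPS6KA1_P-T573 (adjusted p = 0.00694) and -1.04 for RPS6KA3_P-T353/T356 (adjusted p = 0.0105), which are sites on kinases of the ERK cascade. It was -1.07 for STAT3_P-S727 (adjusted p = 0.0105), -0.91 for STAT3 (adjusted p = 0.0331) and -0.48 for PDK1_P-S241 (adjusted p = 0.0385). STAT3 is a transcription factor of cytokine signalling. For CYP2B6_3, an antibody to a P450 family that phenobarbital induces, the difference was 5.15 (adjusted p = 0.0116). The other antibodies to this symbol did not share it. The difference between the arms was -0.11 ± 0.38 for CYP2B6_1 and -0.02 ± 0.20 for CYP2B6_2 (adjusted p = 0.948 and 0.978). Both were dim in no sample. CYP2B6_3 was 302 to 460 in Ctnnb1 tumors and 338, 347 and 362 in PB controls, and 7.21 and 0.248 in the 2 measured Ha-ras tumors against 64.7, 46.4 and 25.6 in their controls. The value of CYP2B6_3 in Ha-ras tumor 3 was not positive and was left out. Counting that tumor, CYP2B6_3 was dim in 2 of the 3 Ha-ras tumors, so the size of its difference between the arms rests on values near the blank.

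The genotypes and PB cannot be told apart in these differences. STAT3 and STAT3_P-S727 had PB arm differences of -0.29 and -0.39 and rose in Ha-ras tumors by 0.62 and 0.68, with shared differences of 0.09 ± 0.16 and 0.05 ± 0.17. STAT3_P-S727 was dim in all 3 PB controls and in 3 of 7 Ctnnb1 tumors. Its PB arm difference is therefore not read as a change of the site, and its difference between the arms rests in part on these dim values.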

How the results depend on the processing

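The count for the shared effect, 0 as reported, was 5 without centring, 12 with the dye reference scaling, 3 after quantile normalization and 15 in the authors' value table, all higher in tumors. It was 4 with the median blank subtracted, 6 with non-positive values set to the sample's lowest value (1 higher, 5 lower), 8 with sample weights (3 higher, 5 lower), 17 with equal weight of the arms, and 0 with a pseudocount, without dim antibodies, without the arm covariate and with matched blanks subtracted (an alternative chosen after the data were seen). Leaving out 1 sample gave 0 to 14, with 14 without Ctnnb1 tumor 2, 12 without Ctnnb1 tumor 5, 10 without Ctnnb1 tumor 4, 7 without PB control 4 and 1 without PB control 5 or without Ha-ras tumor 3. EIF2A kept its direction in 30 of 30 alternatives and passed in 13, EGFR kept it in 29 of 29 and passed in 9, PIK3R1 passed in 6 of 30, HDAC2 in 4 and MTOR_P-S2448 in 12. Same-numbered samples correlated at 0.0749 to 0.651, above 0.1 in 4 of 6 pairs, and 8 of 12 samples correlated best with their own number, a hint of pairing from the data. They were not treated as paired, since nothing in the labels pairs them and 2 pairs were not above 0.1. The fixed replicate block, fitted only to the 12 samples in same-numbered pairs, gave 0 calls. The random replicate block, over all 16 samples, gave 15 (6 higher, 9 lower). The PB arm count of 0 was 2 with sample weights and 0 when any 1 sample was left out, the no-PB arm count of 22 ranged from 16 to 24 without 1 sample, and the test of both arms and the ratios gave 0 throughout. The count of 8 for the difference between arms was 3 with the dye reference scaling, 3 in the authors' value table, 16 with sample weights and 5 with matched blanks, and 6 to 11 without 1 sample. Signs turned for CYP2D6 after quantile normalization (0.0527), for MAP2K1 in the authors' value table (0.0455), and for GLUL with the median blank subtracted (1.35), with sample weights (0.18) and without the arm covariate (0.19). Without 1 sample the difference ranged from -1.60 to 0.0986 for GLUL, -0.00101 to 0.174 for CTNNB1_P-S675 and -0.0660 to 0.0703 for AKT1, each turning sign without Ha-ras tumor 3 and AKT1 also without Ctnnb1 tumor 4 or no-PB control 2. None of these passed the test, and the cause was not tested. The small number of arrays and the 3 controls per arm limit the precision.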
